A study of Mus musculus with 6 samples.

Results

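The genes described here are the Toll-like receptors other than Tlr2, together with Cd14 and Ly96, which help the receptor Tlr4 to bind lipopolysaccharide, the endotoxin of Gram-negative bacteria. They were taken by name from a mouse gene table, which holds 13 such genes, and matched to array probes through the transcript accession of each probe. Of these 13 genes, 9 had a matched probe and 7 passed the filter on dim probes, among 14700 named genes tested. No probe was matched for Tlr5, Tlr11, Tlr12 and Tlr13, and the probes of Tlr7 and Tlr8 were too dim to test. The genes were chosen by name, with earlier results of these data known.

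The tissue was colonic mucosa scraped from C57BL/6 mice that lack Tlr2 (Tlr2-/-, called knockout below) and from C57BL/6 wild-type mice, all at postnatal day 90. RNA of 1 knockout and 1 wild-type sample was hybridised to each of 4 two-colour arrays, so that every ratio compares the samples of 1 pair. Pairs are numbered 1, 2, 4 and 5 after the code of the knockout sample, and the knockout sample carried Cy3 in pairs 1 and 2 and Cy5 in pairs 4 and 5. No label says that each sample is a separate animal, so the p-values measure the spread between these samples, and no label says how the Tlr2 allele was made or backcrossed. The comparison asks whether mucosa without Tlr2 differs in the transcripts of the related receptors.

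Toll-like receptors are membrane proteins that recognise molecules shared by many microbes through an outer or luminal domain of leucine-rich repeats and signal through a TIR domain inside the cell. Tlr2 works at the cell surface as a dimer with Tlr1 or Tlr6 and senses bacterial lipoproteins, whereas Tlr4 senses lipopolysaccharide only when bound to the secreted protein Ly96 (MD-2), to which Cd14 hands the lipid. Tlr3, Tlr7, Tlr8, Tlr9 and Tlr13 sit in endosomes and sense nucleic acids, and Tlr5, Tlr11 and Tlr12 sense microbial proteins. In the colon these receptors are carried by epithelial cells and by macrophages, dendritic cells and lymphocytes of the lamina propria.

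Each array held 43379 spots that were not controls, of which between 67.7% and 71.9% were well above background in knockout channels, and between 63.3% and 76.5% in wild-type ones. Tlr2, the deleted gene, had normalised intensities of 133.0, 93.1, 117 and 208 in the knockout samples of pairs 1, 2, 4 and 5, against 2844, 3692, 5276 and 3823 in the wild-type samples. It was 29-fold higher in wild type, and even so its adjusted p in limma was 0.317, so an adjusted p above 0.05 in this design does not show that a gene was unchanged. Pair 1 stood apart from the rest: across 14689 genes, which are not independent replicates, its log2 ratios correlated at -0.214, -0.423 and -0.11 with those of pairs 2, 4 and 5, whereas the other arrays correlated with each other at 0.424 to 0.567 (Pearson). Epithelial markers were as the tissue label requires, with all 8 of the listed genes, among them Epcam, Vil1 and Cdx2, well above background in both channels of all 4 arrays, and the 6 smooth muscle markers were also all above background. All arrays lay on 1 slide, so no slide effect could be tested, and the number of arrays limits the precision of each value.

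By limma with a dye term, none of the 7 genes passed an adjusted p under 0.05, and the background was 0 of 14700 genes (0%). At an unadjusted p under 0.05 there were 2 of the 7, Ly96 and Cd14, against 1184 of all genes tested (8.05%), and without pair 5 there were 0. The submitters' rule was applied as 2 or more arrays past 1.6-fold and no array with a ratio on the other side of 0. It took 0 of the 7 in either direction, against a background of 109 genes higher (0.741%) and 103 lower (0.701%). With median centring in place of loess those background counts were 41 higher and 291 lower. None of the 13 genes is listed in the authors' deposited table of higher or lower transcripts. The median log2 ratio over the 7 genes was -0.12, against -0.0085 over all genes tested, and by pair it was -0.057, -0.32, -0.15 and -0.17 for pairs 1, 2, 4 and 5.

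**Figure D1:**
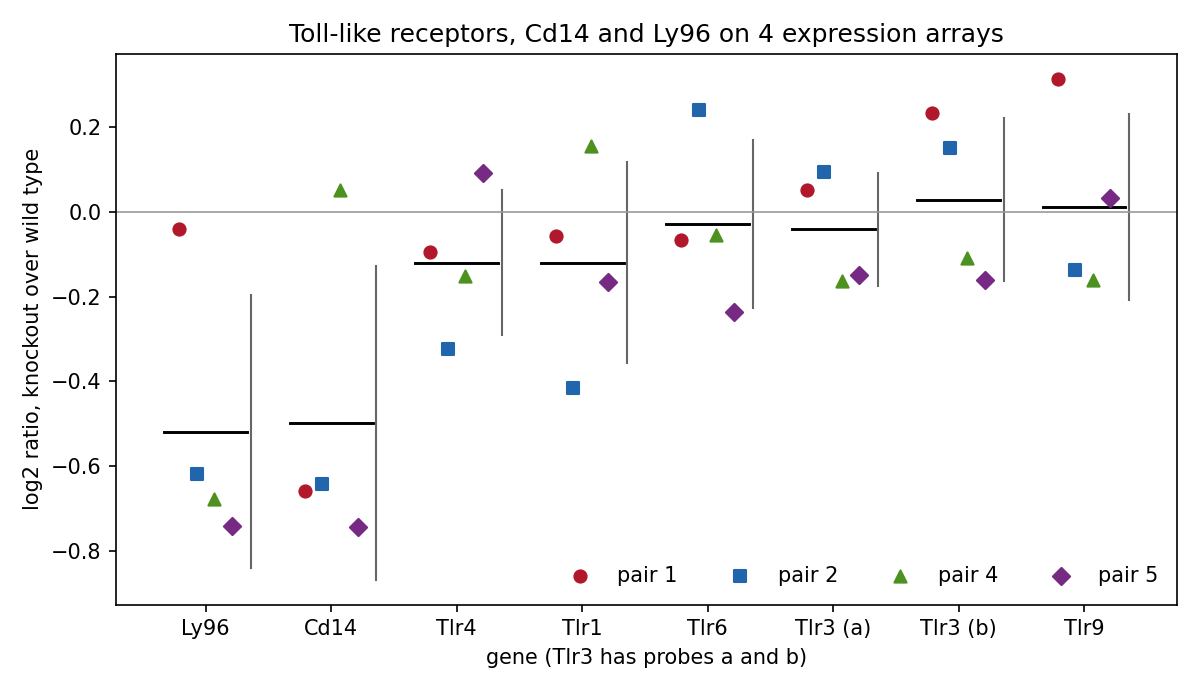
Log2 ratio of knockout over wild type for each array and each probe that passed the filter, with coloured points for pairs 1, 2, 4 and 5, a black bar for the mean and a grey line for 1 SD on either side (n = 4). Ly96 and Cd14 have means near -0.5 with 1 array each near 0, and the means of the Toll-like receptors lie between -0.12 and 0.028.

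Ly96 and Cd14, of the lipopolysaccharide receptor complex, held the lowest means of the 7 genes. Ly96, the lipid-binding subunit of the Tlr4 complex, had normalised intensities of 1603, 935, 1279 and 1219 in the knockout samples of pairs 1, 2, 4 and 5, against 1650, 1434, 2043 and 2036 in their wild-type partners. The knockout sample was the lower one on all 4 arrays, and the knockout and wild-type levels overlapped because the knockout sample of pair 1 was above the wild-type sample of pair 2. For 0 of the 7 genes did the levels of the groups not overlap, against 2.41% of all genes lower and 2.2% higher in knockout samples. The log2 ratios were -0.042, -0.62, -0.68 and -0.74, with a mean of -0.52 ± 0.322 (SD, n = 4), or 1.43-fold higher in wild type. Limma gave a 95% interval of -0.88 to -0.16, an unadjusted p of 0.0161 and an adjusted p of 0.598.

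Ly96 was thus about equal in the samples of pair 1 and lower in the knockout sample of pairs 2, 4 and 5. It was the 1 gene of the 7 with a ratio below 0 on all 4 arrays, which was found for 1236 of all genes tested (8.41%), and 148 of those (1.01% of all genes) had a mean at or below that of Ly96. A ratio above 0 on all 4 arrays was found for 0 of the 7, against 7.12% of all genes. Without pair 1 the fitted ratio was -0.66 with an adjusted p of 0.116 in limma. The adjusted p in limma was 0.302 without pair 2, 0.9999 without pair 4 and 0.9997 without pair 5. Leaving out pair 1 also lowered the adjusted p in limma of other genes, to 0.351 for Tlr1 and 0.381 for Tlr4. Over the 4 fits that each leave out 1 pair, the Ly96 ratio ranged from -0.66 to -0.375. An exact sign-flip permutation test on the 4 ratios gave a two-sided p of 0.125, which is the smallest that 4 arrays allow. Ly96 did not pass the submitters' rule because pair 5 was the 1 array past 1.6-fold, with pair 4 just short of it. With a normexp offset of 16 or with plain background subtraction it passed the rule, with 2 arrays past 1.6-fold.

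Cd14, the surface protein that transfers lipopolysaccharide to Tlr4 and Ly96, had normalised intensities of 2277, 2591, 2857 and 1978 in the knockout samples of pairs 1, 2, 4 and 5, against 3595, 4042, 2756 and 3308 in the wild-type samples. The knockout sample was lower in pairs 1, 2 and 5 and level with its partner in pair 4, where the wild-type sample was the lowest of its group. The log2 ratios were -0.66, -0.64, 0.052 and -0.74, with a mean of -0.50 ± 0.369 (SD, n = 4), or 1.41-fold higher in wild type. Limma gave a 95% interval of -0.94 to -0.051, an unadjusted p of 0.0364 and an adjusted p of 0.598. Without pair 4 the fitted ratio was -0.70 and without pair 5 it was -0.30, a value over 1.5 times smaller than the mean, with adjusted p-values in limma of 1.00 for both. Without pair 1 it was -0.49 and without pair 2 it was -0.50, with adjusted p-values in limma of 0.253 and 0.385.

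Ly96 and Cd14 therefore departed from their low ratios on different arrays, Ly96 in pair 1 and Cd14 in pair 4. Tlr4, the signalling receptor of the complex, was measured with 10 spots of 1 probe on each array. Its normalised intensities were 679, 464, 774 and 838 in the knockout samples of pairs 1, 2, 4 and 5, against 725, 581, 860 and 787 in the wild-type samples. The groups overlapped over most of their range, and the lowest value of each group was that of pair 2. The log2 ratios were -0.096, -0.32, -0.15 and 0.090, with a mean of -0.12 ± 0.171 (SD, n = 4), a 95% interval of -0.40 to 0.16 and an adjusted p of 0.787 in limma. That interval leaves out a Tlr4 difference as large as the mean of Ly96 or of Cd14.

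The repeated Tlr4 spots show how much of this spread lies within an array. The SD over 10 spots was 0.0284, 0.0424, 0.0329 and 0.0484 for pairs 1, 2, 4 and 5, several times smaller than the SD of 0.171 between arrays. In pair 2 the spots ran from -0.40 to -0.27 and in pair 5 from 0.014 to 0.18, so the sign difference between these pairs was larger than the spot error. The other genes described here had 1 spot per probe, and their spot error was not measured.

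**Figure D2:**
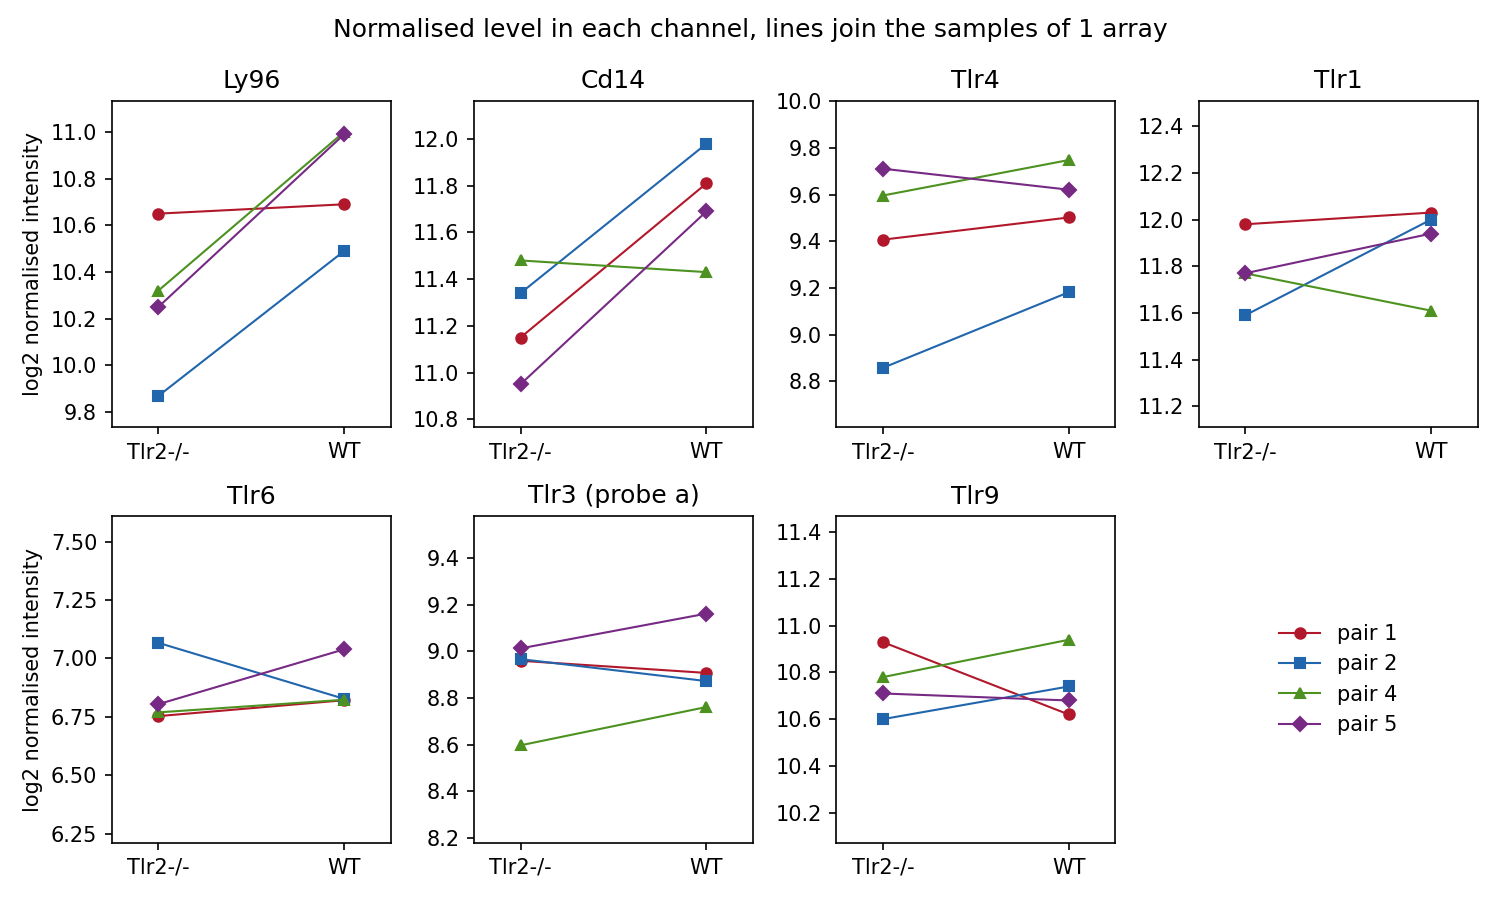
Log2 normalised intensity of each gene in the Tlr2-/- channel (left) and the WT channel (right), with 1 line per array joining the samples of pairs 1, 2, 4 and 5. Each panel spans the same log2 range but has its own position, so levels are not comparable between genes, and the wild-type end is higher for Ly96 on all 4 arrays, by little in pair 1, and for Cd14 on all arrays except pair 4.

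The partners of Tlr2 in lipoprotein sensing, Tlr1 and Tlr6, did not pass the test. Tlr1 had normalised intensities of 4032, 3078, 3485 and 3498 in the knockout samples of pairs 1, 2, 4 and 5, against 4194, 4104, 3133 and 3923 in the wild-type samples. The groups overlapped, and pair 4 was the one array with the knockout sample higher. The log2 ratios were -0.057, -0.42, 0.15 and -0.17, with a mean of -0.12 ± 0.237 (SD, n = 4), a 95% interval of -0.45 to 0.20 and an adjusted p of 0.816 in limma. The Tlr1 ratio fitted with the dye term was -0.21 without pair 1, -0.031 without pair 2, -0.20 without pair 4 and -0.041 without pair 5. Tlr6 was dim but above background in both channels of all 4 arrays, at 107.8, 134.1, 109.1 and 111.8 in the knockout samples, against 113.0, 113.5, 113.3 and 131.5 in the wild-type samples. Single samples stood out, the knockout sample of pair 2 and the wild-type sample of pair 5.

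The Tlr6 ratios were -0.068, 0.24, -0.054 and -0.24, with a mean of -0.029 ± 0.198 (SD, n = 4), a 95% interval of -0.32 to 0.26 and an adjusted p of 0.963 in limma. With Agilent processed signals the mean was -0.27 (adjusted p of 0.804 in limma). Without pair 1 the ratio fitted with the dye term, which is not the plain mean, was 0.048, so the fitted direction is not settled. An intensity this near the offset of 50 used in background correction compresses ratios toward 0. Tlr1 and Tlr6 are close relatives that neighbour each other on chromosome 5, and how far their probes share signal is not known here.

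The endosomal receptors that could be tested had ratios on both sides of 0. Tlr3, which senses double-stranded RNA, was measured by a pair of probes. On the brighter probe its normalised intensities were 498, 500.0, 387 and 516 in the knockout samples of pairs 1, 2, 4 and 5, against 480.1, 469, 434 and 572 in the wild-type samples. The log2 ratios were 0.052, 0.094, -0.16 and -0.15 on this probe, with a mean of -0.042 ± 0.134 (SD, n = 4), and 0.23, 0.15, -0.11 and -0.16 on the other, with a mean of 0.028 ± 0.192. Both probes put the knockout sample higher in pairs 1 and 2 and lower in pairs 4 and 5, so they had the same sign on every array although their means differ in sign. Pairs 1 and 2 are also those in which the knockout sample carried Cy3, and limma estimated the dye effect of the brighter probe at -0.11 (unadjusted p of 0.241). A larger absolute dye effect was found for 49.6% of all genes tested. For Ly96 and Cd14 limma estimated dye effects of -0.19 and 0.15 (unadjusted p of 0.221 and 0.399). With the knockout sample in Cy3 and in Cy5 the mean ratios were -0.33 and -0.71 for Ly96, and -0.65 and -0.35 for Cd14. The genotype effect of Tlr3 on the brighter probe had a 95% interval of -0.27 to 0.19 and an adjusted p of 0.928 in limma.

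Tlr9, which senses unmethylated CpG DNA, had normalised intensities of 1956, 1557, 1754 and 1680.0 in the knockout samples of pairs 1, 2, 4 and 5, against 1575, 1712, 1963 and 1644 in the wild-type samples. The knockout sample was clearly the higher one in pair 1 only. The log2 ratios were 0.31, -0.14, -0.16 and 0.031, with a mean of 0.011 ± 0.218 (SD, n = 4), a 95% interval of -0.32 to 0.34 and an adjusted p of 0.992 in limma. With median centring in place of loess the Tlr9 mean was -0.083. Tlr7 and Tlr8, which sense single-stranded RNA, were not well above background in the knockout channel of any array. In wild-type channels Tlr8 was likewise too dim on every array, and Tlr7 was well above background on 1 array of 4. For Tlr7 the bound on wild type over knockout was 1.00-fold, so no difference could be given, and for Tlr8 none was computed.

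Genes that respond to interferon are given beside the endosomal receptors because Tlr3, Tlr7 and Tlr9 signal to interferon genes and Tlr3 is itself known to be induced by interferon. From a list of 16 genes 15 were tested, of which the submitters' rule called 11 higher and 0 lower, against 0.741% and 0.701% of all genes. Limma called 0 of them over all genes, and 11 had an unadjusted p under 0.05, against 8.05% of all genes. The ratio was above 0 on all 4 arrays for 12 of the 15, against 7.12% of all genes. The list median was 0.96, against -0.0085 over all genes tested, and by pair it was 1.005, 1.302, 0.459 and 1.272. Ifit1, which binds viral RNA lacking the host cap structure, was at 1.296 ± 0.718, and Oasl2, a relative of the oligoadenylate synthetases, at 1.71 ± 0.730 (log2, SD, n = 4). Tlr3 was at -0.042 on the same arrays. That this list is high in these knockout samples was known when it was chosen.

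Start-site windows of these genes were read as a description of their sequence. The RefSeq windows (build GRCm38.p6) span 250 bases before to 50 after a start, and 11 windows of 9 receptor genes were read. Windows of Ly96, Cd14, Tlr4 and Tlr7 were not used here. The letters GAAA repeated after a gap of 2 bases, on either strand and with overlaps counted, as in interferon-stimulated response elements, were in 2 of these 11 windows, those of Tlr6 and Tlr11, in 11 of 16 windows of 14 interferon-list genes and in 3.44% of all 32851 windows. The windows of Ifit1 (chr19:34640639-34640938, plus strand), Tlr6 (chr5:64959117-64959416, minus strand) and Tlr3 (chr8:45410331-45410630, minus strand) are printed 5′ to 3′ with the matches in capitals, as examples with and without matches. Ifit1 was picked for its matches, and the windows of Oasl2 and Ifit2, which had ratios of 1.71 and 1.19, held none.
Ifit1: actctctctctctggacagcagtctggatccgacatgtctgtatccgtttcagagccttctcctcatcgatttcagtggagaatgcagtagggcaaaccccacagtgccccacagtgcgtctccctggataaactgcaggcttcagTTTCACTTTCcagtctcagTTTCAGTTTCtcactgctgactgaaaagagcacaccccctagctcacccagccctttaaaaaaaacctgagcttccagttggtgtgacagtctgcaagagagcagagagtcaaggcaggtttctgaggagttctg
Tlr6: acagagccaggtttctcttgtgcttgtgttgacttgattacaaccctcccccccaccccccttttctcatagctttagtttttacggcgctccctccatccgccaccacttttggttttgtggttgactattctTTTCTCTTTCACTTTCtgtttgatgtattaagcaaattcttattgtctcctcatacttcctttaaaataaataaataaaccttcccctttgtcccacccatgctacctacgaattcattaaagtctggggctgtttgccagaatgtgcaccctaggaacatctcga
Tlr3: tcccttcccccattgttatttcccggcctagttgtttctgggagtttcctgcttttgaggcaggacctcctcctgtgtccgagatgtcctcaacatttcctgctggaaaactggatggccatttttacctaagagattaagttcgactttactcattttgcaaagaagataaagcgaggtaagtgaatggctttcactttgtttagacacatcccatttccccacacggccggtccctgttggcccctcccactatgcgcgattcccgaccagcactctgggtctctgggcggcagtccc
The matches began at -104 and -85 from the start in Ifit1 and, overlapping, at -116 and -110 in Tlr6, and the Tlr3 window held none. Another Tlr6 window, at a second annotated start, also held none. These are exact matches of letters and not shown to be bound. Near matches were not counted, so a window without a match may still hold a similar sequence. The letters CCCGGG, the site of the enzyme SmaI used in the study's methylation assay, were in 0 of the 11 receptor windows and in 13.5% of all windows.

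The other genes of the pathway were read in 4 lists. Over all genes tested, limma called 0%, and the submitters' rule called 0.741% higher and 0.701% lower. Counts of 0 in lists of this size are near those shares and do not show that the pathway was unchanged. Of the 15 listed chaperones and proteases that fold, carry or cleave Toll-like receptors, 13 were tested, 0 passed limma or the submitters' rule, and the list median was -0.058, with -0.017 without pair 1 and -0.022 without pair 4. Unc93b1, the carrier of the endosomal receptors, was at -0.14 ± 0.211, and Lgmn, a lysosomal endopeptidase, was at -0.34 ± 1.14, with 1.19 in pair 1 and -1.55 in pair 4 (log2, SD, n = 4). Rab10, a small GTPase of Tlr4 transport, was at 0.165 ± 0.407 on its brightest probe and at -0.17 and -0.15 on the others. Of 23 tested adaptors and kinases 0 passed either criterion, and the median was 0.041, with 0.134 without pair 1. Tbk1, a kinase that activates interferon regulatory factors, was at 0.51 ± 0.441, Chuk, a kinase of NF-kB activation, at 0.44 ± 0.477 and Myd88, the adaptor of most Toll-like receptors, at -0.012 ± 0.151. Myd88 and Unc93b1 were named after their values were seen.

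Of 10 tested accessory receptors and ligands 0 passed either criterion. The shares over all genes tested were 0% by limma, and 0.741% higher and 0.701% lower by the submitters' rule. The list median was 0.046, and it was 0.0040 without pair 1, 0.10 without pair 2 and -0.044 without pair 4. Grn, or progranulin, which is reported to carry CpG DNA to Tlr9, was saturated on its brightest probe in the wild-type channel of all 4 arrays and in the knockout channel of 1, so that probe gives no usable ratio. Its other probe was never saturated and was at -0.40, -0.041, -0.63 and -0.32 for pairs 1, 2, 4 and 5, with a mean of -0.35 ± 0.243 (log2, SD, n = 4). Cd36, a scavenger receptor that assists Tlr2 with some lipids, was at 0.56 ± 0.682, with 0.042, 0.21, 0.43 and 1.55 for pairs 1, 2, 4 and 5. The median over 6 tested adipocyte markers was -0.24, -0.019, 1.07 and 2.74 for the same pairs. The part of adipocytes in the Cd36 values was not tested. Of 13 tested early target genes 0 passed either criterion, the median was -0.035, with -0.0017 without pair 2 and 0.028 without pair 5, and 6 further listed genes, among them Il6 and Cxcl2, were too dim to test. Nfkbiz, a nuclear regulator of NF-kB targets, was at 0.46 ± 0.380 and Tnfaip3, the deubiquitinase A20 that restrains NF-kB, at 0.41 ± 0.391. These were the 2 of the 13 early target genes above 0 on all 4 arrays, against 7.12% of all genes tested.

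**Figure D3:**
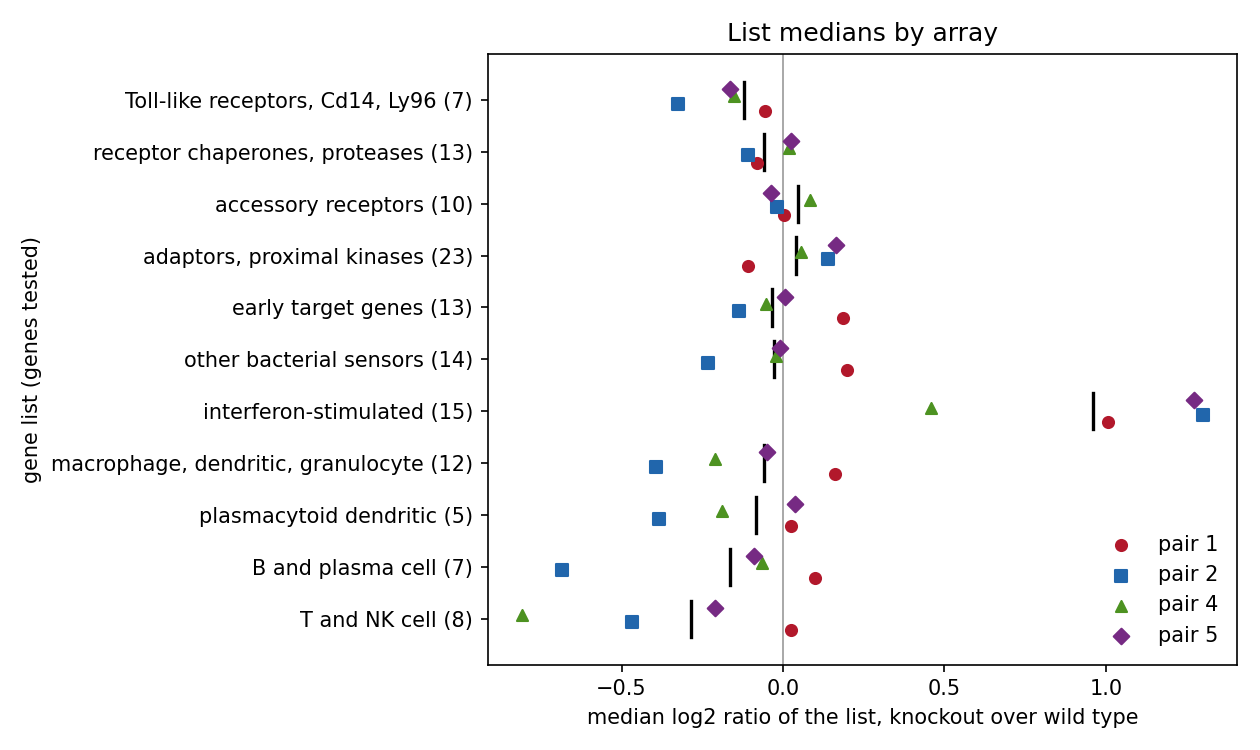
Median log2 ratio of knockout over wild type for gene lists of the pathway and of immune cell types, with points for pairs 1, 2, 4 and 5, a black bar for the median of the gene means and the number of genes tested in brackets. The interferon-stimulated list lies at 0.96, and the medians of the other lists shown lie between -0.29 and 0.046.

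Markers of the cells that carry these receptors were read on the same arrays, since in whole mucosa fewer cells of a type and less RNA per cell cannot be told apart. Of 14 listed markers of macrophages, dendritic cells and granulocytes, 12 were tested, 10 of them above background in both channels of all arrays, 1 had no matched probe and 1 was too dim. Their summed normalised intensity ran from 1530.0 to 2254 in knockout samples and from 1798 to 2021 in wild-type samples. The offset of 50 was added to every signal before normalisation, and it pulls ratios of dim genes toward 0. Similar marker sums therefore do not show similar numbers of cells. The list median was -0.059, with -0.16 without pair 1 and -0.0017 without pair 2, and by pair it was 0.16, -0.39, -0.21 and -0.049 for pairs 1, 2, 4 and 5. Its highest array, pair 1, was that with Ly96 nearest 0, and Cd14 was at -0.66 there.

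C1qa and C1qc, complement subunits made by macrophages, were at -0.31 ± 0.289 and -0.26 ± 0.627. Of the 12 markers 0 passed limma or the submitters' rule, against 0% of all genes by limma and 0.741% higher and 0.701% lower by the rule. For B and plasma cells the median by pair was 0.10, -0.68, -0.065 and -0.088 over 7 genes, with Cd79b at -0.65 ± 1.41 and Ms4a1 at -0.40 ± 0.880 (log2, SD, n = 4). For T and NK cells it was 0.024, -0.47, -0.81 and -0.21 over 8 genes, of which 2 passed the submitters' rule downward, against 0.701% of all genes, the granzymes Gzma at -1.46 ± 0.797 and Gzmb at -0.96 ± 0.618. The summed T and NK marker intensity ran from 1419 to 2043 in knockout samples and from 1947 to 2750 in wild-type samples. For plasmacytoid dendritic cells the median by pair was 0.025, -0.38, -0.19 and 0.039 over 5 genes. The part of these cell markers in the Ly96 and Cd14 values was not tested.

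The posterior Hox genes, which mark position along the gut, had list medians of -1.48, 0.50, 1.21 and 0.50 for pairs 1, 2, 4 and 5 over 8 genes, so they moved in opposite ways on the arrays where Ly96 (pair 1) and Cd14 (pair 4) were near 0. Their part in those values was not tested. The genes closest to Ly96 in their 4 log2 ratios were Glod5, Exosc7 and Wdr83, with root-mean-square differences of 0.050, 0.059 and 0.089 over the 4 arrays, and each was near 0 in pair 1 and between -0.55 and -0.72 in the other pairs. None of the 13 receptor and co-receptor genes lies on chromosome 3, which carries Tlr2.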

How the data were processed

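Colonic mucosa RNA of 4 knockout and wild-type pairs was measured on two-colour arrays, with groups, pairs and dyes taken from the labels. Per the file headers, the authors deposited spot intensity (median and processed signals, with local background) from Agilent Feature Extraction 10.5.1.1 (8.5.1.1 per the submitters' processing notes). The authors deposited hit tables that give a mean linear ratio per gene; their normalisation is not stated in these sources. The methylation arrays were not used here.

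Median signals were corrected with normexp (offset 50), a step that pulls ratios of dim probes toward 0, and normalised by loess per array in R 4.3.3 with limma 3.58.1, with control spots at weight 0. Outlier spots were dropped and spots of a probe averaged. Of 41174 probes, 25097 got a symbol through the accession from a gene table of assembly GRCm38.p6, and 21305 stayed after a filter that needs signal well above background in knockout or in wild-type channels of 2 or more arrays. The brightest probe stood for its gene. Log2 ratios were fitted with lmFit and eBayes with a dye effect, and adjusted by Benjamini-Hochberg over 14700 genes at 0.05. Channel levels are after Aquantile scaling. The procedures were tested on simulated data.

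Named were Tlr2, every receptor gene with a probe, the genes of each pathway list passing the submitters' rule or the 2 with the largest mean, 2 per marker list, and the 3 genes nearest to Ly96. Of the interferon list only some that pass are named, and of the lists given by medians none. The genes and lists were chosen with earlier results of these data known. Alternatives covered background, normalisation, filter, probe choice, dye term, fold threshold and each pair left out. Dropping saturated spots and list means were added after seeing the data.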

Additional observations from a re-analysis of the deposited data

Results flagged for a closer look

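Among 27 sets of 4 values of the tested probes (log2 ratios, knockout levels and wild-type levels), 5 had 1 sample far from the other samples of its group, and chance flags about 1 in 20 such sets. The sets are not independent, because ratios derive from the levels and both probes of Tlr3 are included. The count therefore cannot show an excess over chance. The Cd14 ratio of pair 4, at 0.052, lay apart from -0.66, -0.64 and -0.74 in pairs 1, 2 and 5. The Tlr3 level in the knockout sample of pair 4 was low on both probes, at 8.60 and 8.31 (log2 normalised intensity). The Tlr6 level was high in the knockout sample of pair 2, at 7.07, and in the wild-type sample of pair 5, at 7.04 (log2 normalised intensity).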

How the results depend on the processing

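Under the 14 alternatives run for each gene, the fitted ratios of Ly96, Cd14, Tlr1, Tlr3 and Tlr4 stayed below 0. No receptor or co-receptor gene passed limma's adjusted p. With 1 pair left out, the fitted ratio depends on the dye term and is not the plain mean of the remaining ratios. Ly96 ranged from -0.66 to -0.375 (adjusted p 0.116 to 1.00) and Cd14 from -0.70 to -0.30 (0.253 to 1.00). Over all 14 alternatives, and not only those with 1 pair left out, Tlr1 ranged from -0.24 to -0.031, Tlr3 from -0.13 to -0.0070 and Tlr4 from -0.20 to -0.060. Tlr9 was at -0.083 with median centring and ranged from -0.10 to 0.12 with 1 pair left out, and Tlr6 ranged from -0.11 to 0.048 with 1 pair left out, so neither has a settled direction. The number passing the submitters' rule downward was 1, Ly96, instead of 0 with plain background subtraction, with a normexp offset of 16 and with a 1.4-fold threshold. The background counts of that rule, 109 higher and 103 lower, were 196 and 171 with plain subtraction, 261 and 276 with Agilent processed signals, 385 and 493 without pair 1, 253 and 263 at 1.4-fold and 38 and 36 at 2-fold. The count of all genes passing limma, 0, was between 0 and 4. The number of receptor and co-receptor genes at an unadjusted p under 0.05, 2, was between 0 and 1 with 1 pair left out, and 1 with Agilent processed signals and with median centring. The ratios fitted are already paired within each array. Beyond these ratios, no paired analysis was possible because a replicate block would leave 1 ratio per block. The probes of Tlr7 and Tlr8 did not pass the filter on signal over background, so they were not tested.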

Other observations

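Other sensors of bacteria were mixed. Of 14 tested genes of a list of 17, 0 passed limma or the submitters' rule, the background being 0.741% higher and 0.701% lower, and the list median was -0.028, with 0.013 without pair 2 and -0.058 without pair 4. Casp4, which encodes the mouse caspase that binds cytosolic lipopolysaccharide, was at 0.65 ± 0.901 (log2, SD, n = 4), with 1.66, -0.33, 0.15 and 1.11 for pairs 1, 2, 4 and 5. Ripk2, the kinase that acts downstream of Nod1 and Nod2, was at 0.36 ± 0.322. It was the 1 gene of the 14 above 0 on all 4 arrays, which is near the 7.12% found over all genes tested. Saa3, an acute-phase serum amyloid gene induced by lipopolysaccharide, was at -0.32 ± 0.145, with an adjusted p of 0.598 in limma. It was the 1 gene of 13 tested early targets below 0 on all 4 arrays, near the 8.41% found over all genes tested. Saa3 was named after its values were seen.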
